A study of Haemaphysalis flava with 2 samples.

Results

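Immunoglobulin-binding unigenes were examined in midgut RNA of the hard tick Haemaphysalis flava, at full engorgement (FE) against partial engorgement (PE). A unigene is an assembled transcript or transcript fragment. The members were the unigenes whose description in the Nr protein database contained "immunoglobulin-binding protein" or "immunoglobulin G binding protein", and 10 of the 65535 unigenes of the expression table met this rule, out of 20074 with an Nr description. The members were chosen by description, but the family itself was selected on the FE and PE levels of these same libraries, so all levels and ratios below describe these libraries and no test was made. The FE library was made from midguts of fully engorged ticks and the PE library from midguts of partially engorged ticks, with 1 library per state. Of the 60 ticks dissected, 30 were of each state, but how many were pooled into a library, their sex, their host and their days on it are not given in the labels. Polyadenylated RNA was sequenced in both.

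Hard ticks take up host immunoglobulin G with the blood meal, and part of it crosses the gut wall intact into the hemolymph. Immunoglobulin-binding proteins were described from the hemolymph and salivary glands of the brown ear tick Rhipicephalus appendiculatus, where they bind host immunoglobulin G, and in males of that species such proteins are secreted with the saliva. Binding was not measured in these libraries, and the name of each unigene rests on sequence similarity alone.

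The expression table listed 35944321 reads in FE and 43831353 reads in PE. These are 86.8% and 87.0% of the library totals of 41432770 and 50397332 reads implied by the deposited values. The expression table stops at 65535 unigenes, and Contig35541, which has a GO annotation, is not among them. Ranks, shares and counts over all unigenes therefore cover the listed unigenes only. Levels are given as RPKM, reads scaled to unigene length and library total. Intervals are exact 95% intervals (Clopper-Pearson, conditional binomial) of the ratio of counts, and they cover counting error only, since reads without molecular identifiers are not independent molecules. With 1 library per state no difference can be set against variation between ticks or between extractions. In dissected tissue a smaller number of cells of a type cannot be told apart from less RNA per cell.

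The similarity behind the family name was partial. Of the 10 members, 8 had as their best Nr hit the same partial protein of the deer tick Ixodes scapularis, 167 residues long. The hits of the other two were different I. scapularis proteins of the same name, a partial one of 166 residues for Contig36425 and one of 165 residues for Contig68934. Identity to the Nr hit ranged from 25.67% in Contig2367 to 51.22% in Contig27754. The alignments of the 8 members that shared a hit all covered residues 29 to 130 of that protein, so these unigenes stand for parallel sequences over the same stretch and not for successive pieces along 1 protein. Identities to it as far apart as those of Contig2367 and Contig27754 mean that the members are not all near copies of 1 sequence. Identity between members was not computed, so which of them are separate genes, alleles or splice forms cannot be told here. How reads were divided among similar unigenes by the authors' counting is also unknown here, so the level of each one is uncertain to that extent.

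Other annotations did not all carry the name. The best UniProt hit named an immunoglobulin-binding protein for 4 of the 10. For Contig5573, Contig27754 and Contig53223 it was immunoglobulin G-binding protein 2 of the cattle tick Rhipicephalus microplus, with 55.69%, 51.52% and 38.42% identity. For Contig68934 it was the I. scapularis protein, at 27.68% identity. The other 6 had an uncharacterized protein of the Gulf Coast tick Amblyomma maculatum. For 5 of these, Contig2378, Contig2367, Contig3408, Contig2368 and Contig60105, it was the same 167-residue protein. No member's UniProt hit named a heat shock or glucose-regulated protein, the family of the chaperone BiP, whose full name (binding immunoglobulin protein) is similar.

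Gene Ontology (GO) terms were attached to 7 of the 10 members, and each of the 7 carried the same 3 terms, enzyme activator activity, positive regulation of catalytic activity and ganglioside catabolic process. In mammals these terms describe the GM2 activator protein, a small lysosomal protein that lifts ganglioside lipids out of membranes so that beta-hexosaminidase can cut them. The term ganglioside catabolic process was held by 8 unigenes of the GO table. Of these, 7 were in the expression table, and all 7 were members. The other, Contig35541, is described as a secreted protein, and its levels were not analysed here. The 3 members without a GO term were those that matched the R. microplus protein. No member had a hit in the KOG classes of conserved eukaryotic proteins. The label immunoglobulin-binding is therefore used here as the name of the Nr hit.

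As a whole the family took up a larger part of the FE library than of the PE library. Its reads numbered 24612 in FE and 1278 in PE, which is 0.0594% of the library total (exact binomial interval 0.0587% to 0.0601%) in FE against 0.00254% (0.0024% to 0.00268%) in PE. The summed level of the 10 members was 924.4 RPKM in FE and 34.97 RPKM in PE, a ratio of 26.4. That ratio rested on a few unigenes. Without the 4 most abundant members the other 6 summed to 34.7 RPKM in FE and 32.3 RPKM in PE, a ratio of 1.07. Among these 6, Contig60105 alone had 30.8 RPKM in PE and 0.533 RPKM in FE, so 1.07 does not describe the rest. The median log2 of (FE RPKM + 1)/(PE RPKM + 1) over the 6 was 1.63.

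**Figure D1:**
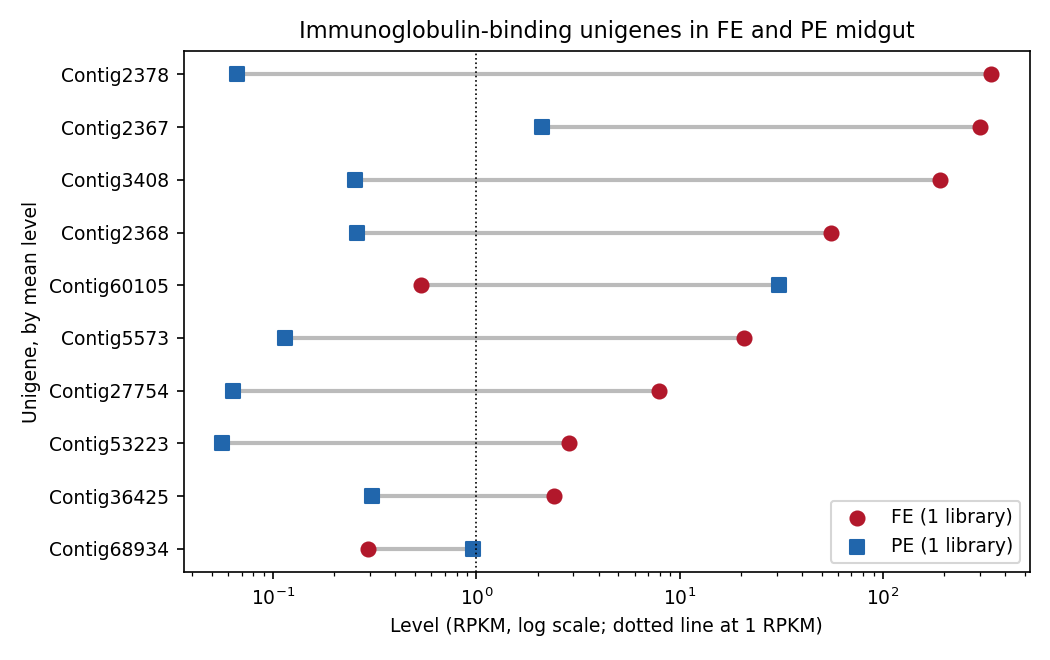
Level of each of the 10 unigenes in RPKM (log axis) in the FE library (red circles) and the PE library (blue squares), ordered from top to bottom by mean level, with a grey line joining both values of a unigene. The FE circle lies to the right of the PE square for 8 unigenes, and Contig60105 and Contig68934 run the other way.

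For a call of higher or lower, 2 conditions had to hold: the log2 of (FE RPKM + 1)/(PE RPKM + 1) was at least 1 or at most -1, and the interval excluded 1. The rule was applied to unigenes of at least 1 RPKM in a library. By this rule 8 members were higher in FE and 1, Contig60105, was lower. Contig68934 was under 1 RPKM in both libraries and did not enter. Among all 44982 unigenes that entered, 25.7% were called higher in FE and 11.1% lower. Since the family was picked for these same levels, the share among its members is given as a description. All 8 called higher were under 3 RPKM in PE, and 7 of them, all but Contig2367, entered through their FE level alone. The median log2 ratio was 4.28 over the 9 members that entered and 3.68 over all 10, beside 0.36 over all entered unigenes (quartiles -0.34 and 1.02).

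The 4 most abundant members shared the uncharacterized A. maculatum hit and the ganglioside GO terms, and each was more than 100 times higher in FE. Contig2378 (596 nucleotides) had 8429 reads in FE, or 341 RPKM, against 2 reads in PE, or 0.0666 RPKM. The ratio was 5126, with a wide interval of 1419 to 42337 set by the 2 PE reads. On the log2(RPKM + 1) scale its difference ranked 2 from the top among the 65535 listed unigenes. The unigene stood at rank 257 by FE level and at rank 62518 by PE level.

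Contig2367 (678 nucleotides) read 8455 times in FE, 301 RPKM, and 72 times in PE, 2.11 RPKM. It was the one of the 4 that exceeded 1 RPKM in PE, and its ratio of 143 (113 to 183) has the narrowest interval of them on a ratio scale. Contig3408 (546 nucleotides) had 4337 reads and 192 RPKM in FE, against 7 reads and 0.254 RPKM in PE, a ratio of 754 (365 to 1876). Contig2368, at 994 nucleotides the longest of the group, had 2294 reads and 55.7 RPKM in FE, against 13 reads and 0.260 RPKM in PE, a ratio of 215 (125 to 404). Identity of these 4 to the shared A. maculatum protein lay in a narrow band, from 29.33% to 31.67%, and to the I. scapularis protein from 25.67% to 29.3%.

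Contig60105 (724 nucleotides) matched the same A. maculatum and I. scapularis proteins and carried the same GO terms, yet it was the abundant member of the PE library. It had 16 reads in FE, 0.533 RPKM, and 1123 reads in PE, 30.8 RPKM, which made it 57.7-fold higher in PE (35.4 to 101). Its identity was higher than that of the other 4, 45.28% to the A. maculatum protein and 38.79% to the I. scapularis one. It ranked 111 from the bottom of all 65535 unigenes by log2 ratio. Members of this hit group therefore lay at both ends of the distribution of FE/PE ratios.

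**Figure D2:**
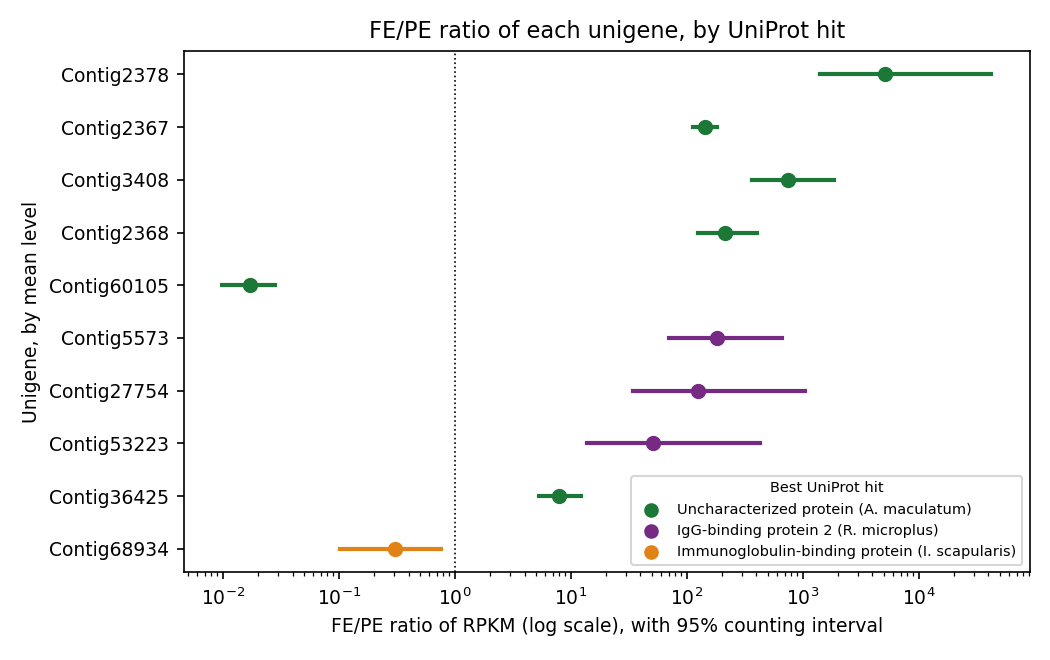
FE/PE ratio of RPKM of each of the 10 unigenes (log axis) as a point with its 95% counting interval as a bar, coloured by best UniProt hit, with the dotted line at a ratio of 1. The 3 matches to the R. microplus protein sit between 51.1 and 181, while the 6 A. maculatum matches reach from 0.0173 for Contig60105 to 5126 for Contig2378.

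The 3 unigenes that matched immunoglobulin G-binding protein 2 of R. microplus had lower levels, and all 3 were higher in FE. Contig5573 (697 nucleotides), with the highest identity to that protein, had 596 reads and 20.6 RPKM in FE against 4 reads and 0.114 RPKM in PE, a ratio of 181 (70.4 to 667). Contig27754 (626 nucleotides) had 206 reads and 7.94 RPKM in FE against 2 reads and 0.0634 RPKM in PE, a ratio of 125 (34.2 to 1041). Contig53223 (707 nucleotides) had 84 reads and 2.87 RPKM in FE against 2 reads and 0.0561 RPKM in PE, a ratio of 51.1 (13.7 to 429). These 3 intervals overlap each other, so the ratios do not separate beyond counting error. Summed over the 3, there were 886 reads in FE and 8 in PE, or 31.4 RPKM in FE and 0.233 RPKM in PE, a ratio of 135 for the reads (68.1 to 313).

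The members matched to other proteins were scarce in both libraries. Contig36425 is the longest of the 10 at 1882 nucleotides, of which the Nr alignment covered 166 positions in amino acids. It had 189 reads and 2.42 RPKM in FE against 29 reads and 0.306 RPKM in PE, a ratio of 7.93 (5.34 to 12.2), the lowest of the 8 called higher. Contig68934, the shortest at 495 nucleotides, had 6 reads and 0.293 RPKM in FE against 24 reads and 0.962 RPKM in PE. It was 3.29-fold higher in PE (1.31 to 9.84), but on the log2(RPKM + 1) scale the difference was -0.60 and too small and too scarce for a call.

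By level, the order of the members in FE was Contig2378, Contig2367, Contig3408, Contig2368, Contig5573, Contig27754, Contig53223, Contig36425, Contig60105 and Contig68934. In PE the order began with Contig60105 and Contig2367, followed by Contig68934, Contig36425, Contig2368, Contig3408, Contig5573, Contig2378, Contig27754 and Contig53223. The PE levels of the last 4 rest on 4 reads or fewer each and cannot be ranked among themselves at this depth.

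The makeup of the family differed accordingly. Contig2378 gave 36.9% of the summed RPKM in FE and 0.19% in PE, and Contig2367 gave 32.6% in FE and 6.03% in PE. Contig3408 gave 20.7% of the FE sum and 0.728% of the PE sum. Together with Contig2368 the 4 made up 96.2% of the FE sum and 7.69% of the PE sum. Contig60105 gave 0.0577% of the FE sum and 88.0% of the PE sum. With Contig60105 set aside, the other 9 summed to 923.9 RPKM in FE and 4.19 RPKM in PE.

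**Figure D3:**
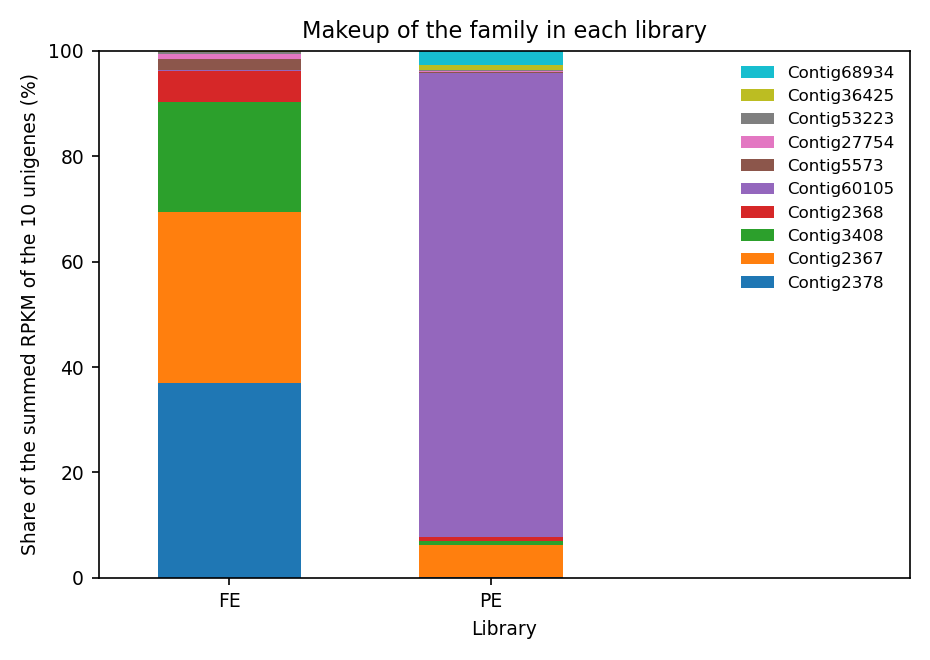
Share of the summed RPKM of the 10 unigenes held by each one (%), as stacked bars for the FE library (left) and the PE library (right), 1 library each. Contig2378, Contig2367, Contig3408 and Contig2368 fill 96.2% of the FE bar, and Contig60105 fills 88.0% of the PE bar.

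The authors' deposited table gives false discovery rates from a test that no source used here names, and in it 6 of the 10 members had a false discovery rate under 0.05. Over all 65535 unigenes of the authors' deposited table, 5.75% passed 0.05 and were higher in FE, and 2.22% passed and were lower. The authors' deposited table gave a false discovery rate of 9.92e-103 for Contig2378 and of 8.79e-07 for Contig60105. In the authors' deposited table Contig27754 had 0.18, and Contig53223, Contig36425 and Contig68934 had 1, so 3 of the members called higher by size did not pass there. The authors' values compare these 2 libraries and not the feeding states.

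Few unigenes combined a high FE level with a PE level near 0. Of 1064 unigenes with at least 100 RPKM in FE, 11 were under 1 RPKM in PE, and Contig2378 and Contig3408 were 2 of these 11. At 10 RPKM or more in FE and under 1 RPKM in PE there were 393 unigenes, 4 of them members (Contig2378, Contig3408, Contig2368 and Contig5573). Contig2367, at 2.11 RPKM in PE, was in neither set. In the opposite corner, at 10 RPKM or more in PE and under 1 RPKM in FE, there were 174 unigenes, among them Contig60105.

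**Figure D4:**
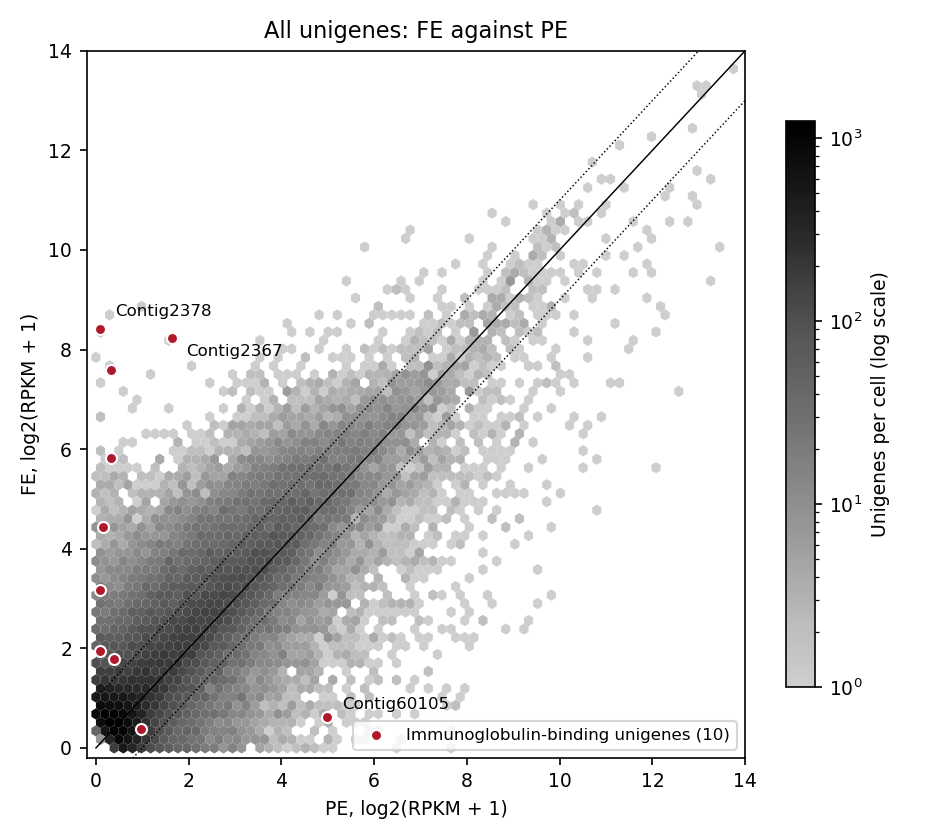
Level of all 65535 unigenes in FE against PE on the log2(RPKM + 1) scale, shaded by the number of unigenes per cell, with the 10 immunoglobulin-binding unigenes as red points, the solid line at equal levels and the dotted lines at a 2-fold difference. Contig2378 and Contig2367 lie at the upper left edge, and Contig60105 lies below the lower dotted line.

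Contig2378 had both the highest mean level and the highest ratio of the family, and the unigenes outside it with the nearest levels were sought among those with an informative Nr description. Nearness was the Euclidean distance on log2(RPKM + 1) over the 2 libraries, so it rests on 2 values per unigene. Among these the nearest was a serpin-2 precursor (Contig1645), a serine protease inhibitor, at a distance of 0.945, with 455 RPKM in FE and 0.922 RPKM in PE. Next came cystatin-2 precursors, inhibitors of cysteine proteases. Contig3911 lay at 1.12, with 156 RPKM in FE and 0.097 RPKM in PE, and Contig8700 at 1.26, with 151 RPKM in FE and 0.471 RPKM in PE. Unigenes without an Nr description lay nearer. The unannotated Contig2366 was at 0.108. Contig307, which has a UniProt hit alone (salivary glands defensin, an antimicrobial peptide), was at 0.341, and the unannotated Contig59748 was at 0.652. The member Contig3408 was at 0.861. These 4 were looked up after their values were seen.

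Because immunoglobulin-binding proteins are known from saliva and hemolymph, unigenes with names of such tissues were read beside them. Lipocalins, which in ticks bind histamine and other mediators of the host, made up the list of secreted blood-feeding proteins. Of its 15 unigenes 11 entered, 7 were higher in FE, 3 lower and 1 neither, with a median log2 ratio of 1.14 and a summed level of 130 RPKM in FE and 74.5 RPKM in PE. Its most abundant member, a lipocalin-2 (First_Contig532), had 7.80 RPKM in FE and 54.9 RPKM in PE. Cement and glycine-rich proteins, some of which fix the mouthparts in the skin, had 2 of 5 entered unigenes higher and 0 lower (median 0.97). Contig14388, the member with the highest mean, had 58.8 RPKM in FE and 49.1 RPKM in PE. A list named for anticoagulants and small secreted proteins, which also took any name with disintegrin, held 12 unigenes, of which 6 entered. In this list 1 was higher and 0 lower (median 0.44). Its most abundant member, Contig5259, is a disintegrin-metalloprotease with 5.84 RPKM in FE and 4.604 RPKM in PE.

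The salivary gland marker list of 95 unigenes, 94 of which also form the list of salivary-named proteins, went both ways. Of 83 that entered, 32 were higher in FE and 25 lower, with a median log2 ratio of 0.45. The list rests on names and includes enzymes described as salivary sulfotransferase, among them Contig6291 (lower), Contig27739 (neither) and Contig14116 (higher). Summed over the list, levels came to 6235 RPKM in FE and 20162 RPKM in PE, with 0 members at 0 reads in FE and 6 in PE. The most abundant, a secreted salivary gland protein (Contig2521), had 688 RPKM in FE and 9207 RPKM in PE. In 5 of the 95 the level was at least 10 RPKM in FE and under 1 RPKM in PE. The highest of these 5 was the defensin Contig307, with 5214 reads and 419.5 RPKM in FE against 3 reads and 0.198 RPKM in PE, a level near that of Contig2378 in both libraries. It is named here after its values were seen. At the same 2 cut-offs there were 4 of the 29 midgut markers and 4 of the 29 unigenes of host protein digestion, 2 lists that share members. There were also 1 of 21 hemocyte markers, 1 of 16 of fat body and ovary, and 0 of the muscle and testis lists. Among all 65535 unigenes there were 393, so the pattern is not particular to salivary names. The part of salivary tissue in the levels of the immunoglobulin-binding unigenes was not tested.

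Hemocyte markers numbered 21, of which 9 entered, 4 were higher in FE and 0 lower (median 0.97), and summed to 82.6 RPKM in FE and 51.4 RPKM in PE. The list had 0 members at 0 reads in FE and 3 in PE. An ixoderin (First_Contig762), a lectin of the tick immune system, was the most abundant with 14.9 RPKM in FE and 29.4 RPKM in PE. Markers of testis and the male reproductive tract numbered 11, of which 10 entered, 7 were higher in FE and 1 lower (median 1.37). They summed to 170 RPKM in FE and 112 RPKM in PE, with 0 at 0 reads in either library. The most abundant, Contig9199, is in the list by its name alone (major sperm protein) and had 61.2 RPKM in FE and 11.9 RPKM in PE. The part of hemocytes and of male tissue was not tested either.

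The list named for fat body and ovary held hemelipoglycoproteins and vitellogenins. It had 6 of 15 entered unigenes higher in FE and 7 lower (median -0.97). Its levels summed to 7101 RPKM in FE and 19995 RPKM in PE, with Contig1058 the most abundant. The tissue in which these RNAs were made was not tested, so the sums do not measure fat body or ovary in the dissected midguts. Muscle markers had 7 of 50 higher and 5 lower (median 0.26) and summed to 3599 RPKM in FE and 4460 RPKM in PE, with a paramyosin (Contig196) the most abundant. Markers of the midgut itself, digestive proteases and peritrophic proteins, summed to 1709 RPKM in FE and 3532 RPKM in PE. Of these 29 markers, 0 were at 0 reads in FE and 4 in PE. Of 27 that entered, 9 were higher in FE and 12 lower (median -0.48). This list shares cathepsins and legumains with the list of host protein digestion below, and Contig5046 is the most abundant of both.

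**Figure D5:**
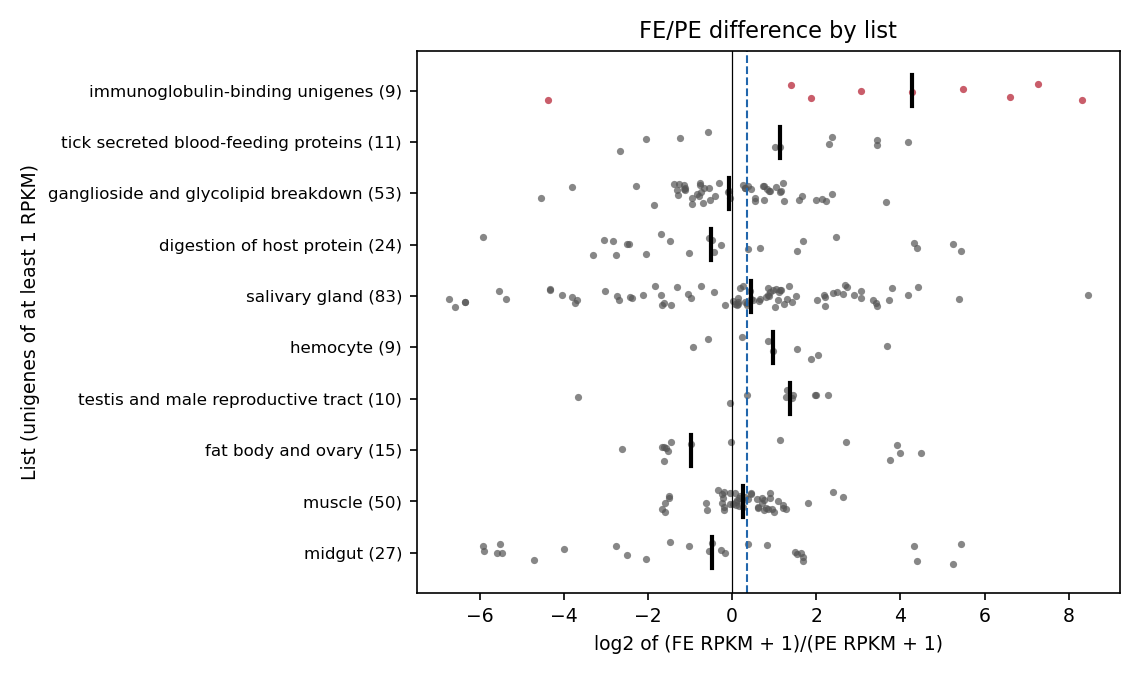
Log2 of (FE RPKM + 1)/(PE RPKM + 1) of each unigene of at least 1 RPKM in a library, for the immunoglobulin-binding unigenes (red) and for 9 other lists (grey), with the number of unigenes in parentheses, black bars at the list medians, the thin line at 0 and the dashed blue line at the median of all unigenes, 0.36. The family median is 4.28 with Contig60105 alone on the left, and the other lists have medians between -0.97 and 1.37. The lists of midgut and of digestion of host protein share unigenes.

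Host protein itself is broken down in tick gut cells by cathepsins, legumains and related proteases. Of 24 such unigenes that entered, 7 were higher in FE and 11 lower, with a median log2 ratio of -0.51 and a summed level of 1880 RPKM in FE and 2859 RPKM in PE. Cathepsin B (Contig5046) led the list with 569 RPKM in FE and 829 RPKM in PE. Of the 29 unigenes listed, 0 were at 0 reads in FE and 5 in PE. The single other unigene named for an immunoglobulin or its receptor was Contig18283, described as a putative IgA Fc receptor, a name best known from bacterial surface proteins. It had 1660 reads and 61.0 RPKM in FE against 561 reads and 16.9 RPKM in PE.

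Since the GO terms of the family name ganglioside breakdown, enzymes and cofactors of glycolipid breakdown were listed as well, a list added after the annotations and values were seen. Its 56 unigenes were hexosaminidases, beta-galactosidases, glucocerebrosidases, saposins and arylsulfatases, most of the last described as arylsulfatase B, which in mammals acts on glycosaminoglycans. Of 53 that entered, 12 were higher in FE, 12 lower and 29 neither, with a median log2 ratio of -0.06. The list summed to 1023 RPKM in FE and 1648 RPKM in PE. A saposin (Contig2955), another lipid-binding cofactor of lysosomal enzymes, had 88.2 RPKM in FE and 322 RPKM in PE.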

How the data were processed

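The authors deposited read counts per unigene (whole numbers, not normalized) and RPKM values beside them, per the file headers. A separate table by the authors holds the ratio (fold) of PE over FE RPKM, the p-value of a test that no source used here names, and its false discovery rate. Per the submitters' processing notes CASAVA 1.8 was used. For the assembler, aligner and counter, no name was found in the labels or headers. The authors also deposited the best Nr and UniProt hit of each unigene with an alignment score and percent identity, KOG hits and GO terms, per the file headers.

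Library totals were implied from counts, RPKM and length. No test was run with 1 library per state, and the size rule, the minimum of 1 RPKM and the added 1 RPKM are stated with the results. Lists were word patterns on the Nr description, or on the UniProt description where Nr gave none. Matches judged false (receptors, thioesterases, inhibitors, polyamines) were left out of some lists, and other false matches may remain. The members, lists and rules were chosen with earlier results of these data known. The text names each member, the 3 nearest unigenes outside the family that have an informative Nr description to the most abundant member and the most abundant unigene of a list. Alternatives used a TMM factor from edgeR 4.0.16 in R 4.3.3. Other steps used Python 3.11.15, numpy 2.4.6, pandas 2.3.3, scipy 1.17.1 and matplotlib 3.10.9.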

Additional observations from a re-analysis of the deposited data

How the results depend on the processing

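The counts of 8 members higher and 1 lower in FE did not change with an added 0.1 RPKM, without a filter, with any of the 3 other scalings or with unigenes of at least 500 nucleotides, and 6 were higher and 1 lower with an added 5 RPKM or with a filter at 5 RPKM. Among the 4 members whose UniProt hit also names an immunoglobulin-binding protein 3 were higher and 0 lower, and with 1 unigene per Nr hit 2 were higher and 0 lower, since both sets leave out Contig60105 and hold fewer unigenes. The median log2 ratio relative to all unigenes was 3.92. It was 6.15 with an added 0.1 RPKM and 2.15 with 5 RPKM, 3.46 without a filter (the same over all 10 members, an alternative chosen after seeing the data), 5.05 with a filter at 5 RPKM, 2.71 with UniProt names and 3.64 with 1 unigene per Nr hit. The ratio of summed RPKM, 26.4, was 20.1 with a TMM factor, 19.3 centred on the median of all unigenes and 19.1 centred on cytosolic ribosomal proteins. It was 26.6 with UniProt names, 90.0 with 1 unigene per Nr hit and 27.2 at 500 nucleotides or more. Without the 4 most abundant members, an alternative chosen after seeing the data, it was 1.07, with most of the PE level from Contig60105. The 3 scalings lower the log2 of FE over PE RPKM by 0.39, 0.46 and 0.47, and the log2 ratio with the added 1 RPKM by less. The ratios of single members kept their direction with a TMM factor and centred on the median. No paired analysis was possible because each state has 1 library. The 5 members with fewer than 10 PE reads have ratios whose upper bounds depth leaves wide. On a unigene of 1 kilobase 3 reads correspond to 0.0724 RPKM in FE and 0.0595 RPKM in PE, and on a shorter one to more.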

Other observations

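The corner of the distribution that holds Contig2378 and Contig3408, at 100 RPKM or more in FE and under 1 RPKM in PE, held 11 unigenes, 8 of them with a description. The unigenes named here were picked once values were known. The unannotated Contig2366 (628 nucleotides) was close to Contig2378 in both libraries, with 8240 reads and 317 RPKM in FE against 2 reads and 0.0632 RPKM in PE. The unannotated Contig59748 had 217 RPKM in FE against 0.0485 RPKM in PE, from 1 read. Contig53827, also unannotated, had 102 RPKM in FE against 0.0671 RPKM in PE. A secreted protein (Contig11579) had 130 RPKM in FE against 0.742 RPKM in PE.

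Lipocalins also lay on both sides. Contig8300, matched to lipocalin-5, had 42.0 RPKM in FE and 2.95 RPKM in PE, and Contig2979, with the same match, had 36.1 RPKM in FE and 1.03 RPKM in PE. Contig78478, matched to lipocalin 16, was listed at 0 reads in FE and 108 reads in PE, 3.11 RPKM.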
